A study of Arabidopsis thaliana with 9 samples.

Results

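In Arabidopsis Col-0 seedlings, 575 of the 1662 candidate cleavage sites listed by nanoPARE paired a young miRNA with its transcript only weakly. nanoPARE (nano-parallel analysis of RNA ends) captures 5′ ends of RNA, among them the uncapped end of the 3′ fragment that remains after a miRNA-guided cut. A site is 1 position of 1 transcript. A site entered the set when its guide was numbered miR415 or higher, with miR472, miR827, miR828 and miR857 left out, and when its Allen score was 5.5 or 6. The Allen score is a penalty for mismatches, wobbles and bulges in the miRNA-target duplex, 0 is a perfect match, and 6 was the highest listed value. The rule leaves out 5 loci (AT1G07400, AT5G01530, AT4G05180, AT3G46230 and AT3G56020), which took away 5 sites, so the sums of gene groups below do not hold them. The rule names no signal value, but a site could be listed only where a library gave reads, and the rule was set with earlier results of these data known. Which transcripts gave ends in each library is described here from the deposited values.

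The 9 libraries came from whole 7-day-old seedlings of the wild-type accession Col-0, which carried no transgene or mutation. Control seedlings were not heated, HS seedlings were heated for 1 h at 37°C, and Recovery seedlings were heated in the same way and then kept for 2 h at 22°C. Each group held 3 libraries that the series describes as biological replicates. As whole seedlings were used, fewer cells of a type and less RNA per cell cannot be told apart. Of 7 root marker loci 0 were listed in the series, and of 6 green shoot marker loci 2 were, so the lists give no check of the tissue.

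Plant miRNAs guide ARGONAUTE1 to transcripts with near-complete complementarity, and the cut falls between the target bases opposite guide bases 10 and 11. Old miRNA families are shared among land plants and are known for well-paired targets, many of them mRNAs of transcription factors. Young miRNAs occur in a single species or a few related ones, are often weakly expressed, and many have no known target. Here the miRNA number stands in for age, and the age of single guides was not checked. Mismatches near the middle of the duplex are known to reduce slicing, so a high Allen score marks a candidate pair and not an established one.

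The 575 sites lay in 558 loci and were assigned to 167 guides, of which 54 had a single site. At 10 guides there were 10 or more sites each, 179 sites in all (31.1%). miR5021 had 39 sites, miR838 had 26, miR847 had 21, miR837-5p had 17, and miR5662 and miR829-5p had 14 each. By summed signal over the 9 libraries, miR838 led with 38.5 RPM (reads scaled by the authors to the size of each library), followed by miR5024-3p with 26.6, miR5021 with 25.3, miR829-5p with 18.4, miR5651 with 16.7 and miR831-3p with 15.2 RPM. The mature sequences of these 9 guides are shown because each is among the 6 with the most sites or the 6 with the largest signal, with the seed (bases 2 to 8) in capitals.
miR5021: uGAGAAGAagaagaagaaaa
miR838: uUUUCUUCuacuucuugcaca
miR847: uCACUCCUcuucuucuugaug
miR837-5p: aUCAGUUUcuuguucguuuca
miR5662: aGAGGUGAccauuggagaug
miR829-5p: aCUUUGAAgcuuugauuugaa
miR5024-3p: cCGUAUCUuggccuugucauu
miR5651: uUGUGCGGuucaaauaguaac
miR831-3p: uGAUCUCUucguacucuucuug

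Several guides with many sites were of low sequence complexity. Purines made up 95.0% of miR5021, a GAA repeat, and pyrimidines made up 81.0% of both miR838 and miR847. miR5658, with 12 sites, is a run of AUG triplets. Such a bias was not confined to guides with many sites. miR854a, with 5 sites, had 90.5% purines and miR773a, with 6 sites, had 81.0% pyrimidines, while miR829-5p, with 14 sites, had 47.6% purines. A link between composition and the number of sites was not tested. miR838 is known to arise from an intron of DCL1, the Dicer that makes most plant miRNAs, and its mature sequence lay at chr1:28635-28655 on the plus strand of TAIR10.1. miR5021 lay at chr2:11974822-11974841 on the minus strand. No 2 of the 9 guides shared a seed, and among all 167 guides 4 pairs did, such as miR833a-5p with miR833b and miR447a-3p with miR447c-3p.

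The deposited position was matched to the RefSeq transcripts of TAIR10.1 for 138 of 565 sites whose transcript was in that annotation (24.4%). At these sites the base after the deposited position paired with guide base 10. At any other shift of up to 20 bases, 7 sites or fewer matched. The others are not placed here, among them the sites of CA1, AT4G14270 and HSP70T-2, and whether their positions refer to other transcript models was not tested. The shares that follow hold for the placed sites alone. Of the placed sites, 111 (80.4%) lay in coding sequence, 17 (12.3%) in the 3′ UTR and 9 (6.52%) in the 5′ UTR. Among 81 placed sites of young miRNAs with an Allen score up to 5, 45 (55.6%) lay in coding sequence and 24 (29.6%) in the 3′ UTR. Over the transcripts of the weakly paired sites that have a coding sequence, 70.2% of the bases were coding. The bases of the transcripts of the better paired sites were not counted, so their share has no such baseline here. The duplexes held a median of 2 mismatches and 2 G:U wobbles, and 91 of the 138 needed a bulge. In 104 (75.4%) no mismatch fell at guide bases 2 to 8, and in 15 (10.9%) a mismatch fell at guide base 10 or 11. Guide bases left out by a bulge were not counted as mismatches, so the share with an unpaired central base can be higher. Where several bulge positions could give the deposited score, the places of bulge and mismatches are not unique.

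**Figure D1:**
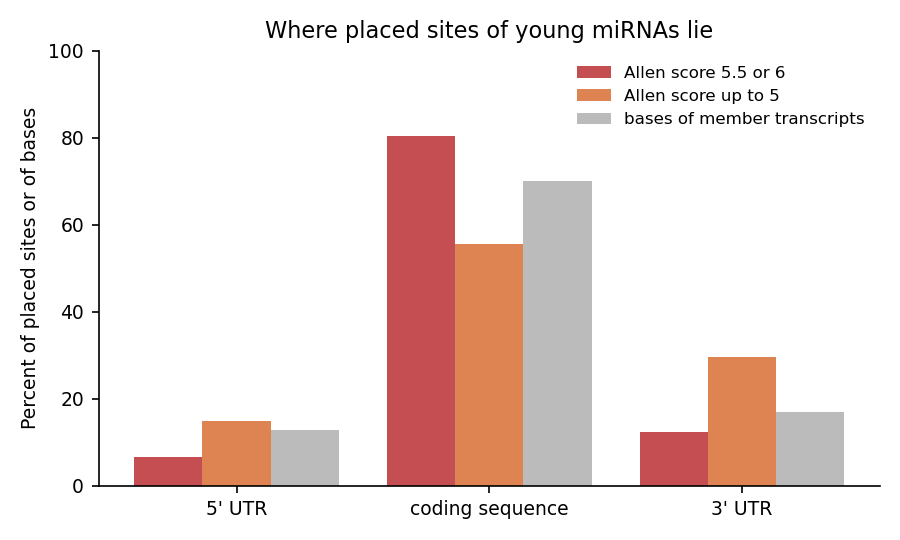
Percent of placed sites of young miRNAs in the 5′ UTR, coding sequence and 3′ UTR (x axis) for Allen scores 5.5 or 6 (138 sites) and up to 5 (81 sites). Grey bars give the percent of bases in each part of the transcripts of the weakly paired sites alone. Coding sequence held 80.4% of the weakly paired sites, 55.6% of the better paired ones and 70.2% of these bases.

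The target sequences below show what such a duplex looks like for sites described in the following paragraphs. They are written 5′ to 3′ from the transcript strand of TAIR10.1, and capitals mark bases that form no Watson-Crick pair with the guide, that is mismatches, G:U wobbles and bulged target bases.
Hsp70b, guide miR832-5p: tttTgattTTcgatcTcGgTG
AT4G26670, guide miR5659: GacTgttccaagaTcAtcatcg
AT3G01130, guide miR829-5p: AtcaaGCtcaaGgcttTaaagC
AGT, guide miR5021: tttCTttctcttcCtctca
UBQ6, guide miR838: GgtgcTaagaagAGgaagaaGa
PSAE-2, guide miR834: CCaccaccgctGctgctGcTC
RCA, guide miR863-5p: CtGATgatcaacaagacatCa
AT5G05750, guide miR870-3p: gaGAgaCTgaaGcaccaaGtta

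The Hsp70b site, at chr1:5503708-5503728 on the minus strand in the single exon and in coding sequence, had 0 mismatches and 7 wobbles. The RCA site, at chr2:16572606-16572626 on the minus strand in exon 2 of 6, had 5 mismatches, 4 of them at guide base 14 or beyond. The UBQ6 site, at chr2:19344926-19344947 on the plus strand in exon 1 of 2, and the PSAE-2 site, at chr2:8736964-8736984 on the plus strand in exon 1 of 3, were also in coding sequence. The AT4G26670 site lay at chr4:13453461-13453482 on the plus strand and was coding, in exon 5 of 5. The AT3G01130 site lay in coding sequence across an exon junction, between 44949 and 45332 of chromosome 3 on the minus strand. The AGT site, at chr2:5539381-5539399 on the minus strand, and the AT5G05750 site, at chr5:1728689-1728710 on the plus strand, were in 3′ UTRs.

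Signal at these sites was close to the smallest that a library can show. The value of 1 read was taken as the commonest RPM value of a library and ran from 0.217 to 0.429 RPM, which implies 2331769 to 4609739 reads per library. Among the listed sites the median was 1 read in each library, and between 56.7% and 71.2% of a library's sites held 1 read or less. Only 46 of 987 lines (4.66%) reached 5 reads, and the highest value was 16.0 reads. Over the 9 libraries 366 sites (63.7%) were listed in 1 library, 115 in 2 and 94 in 3 or more, and 2 were listed in all 9. Of all 1662 sites 63.6% were likewise listed in 1 library. At 515 sites no library reached 1 RPM.

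The slice-site signal was rarely above its surroundings. The deposited fold, the slice-site RPM plus 1 over a local background RPM plus 1, had a median of 0.795 over the 987 lines and was above 1 in 182 (18.4%). It reached 2 in 2 lines, at AT1G72740 (2.29) and AT1G18740 (2.20), both in Control replicate 1. Better paired sites of young miRNAs had a median fold of 0.794 over 759 lines, and weakly paired sites of the other miRNAs without miR414 had 0.832 over 369 lines. Better paired sites of the other miRNAs had a median fold of 1.00 over 320 lines, and 41.9% of their lines were above 1. The adjusted p deposited by the authors was under 0.05 in 1 of the 987 lines (0.101%), in 16 of the 759 (2.11%), in 0 of the 369 and in 74 of the 320 (23.1%). Lines of 1 site in several libraries are not independent, and these shares are given as descriptions. At the border of the rule, the 209 sites with a score of 5.5 had a median fold of 0.803 and the 212 sites of young miRNAs with a score of 5 had 0.795. Young miRNAs thus had nearly the same median fold on both sides of the border.

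**Figure D2:**
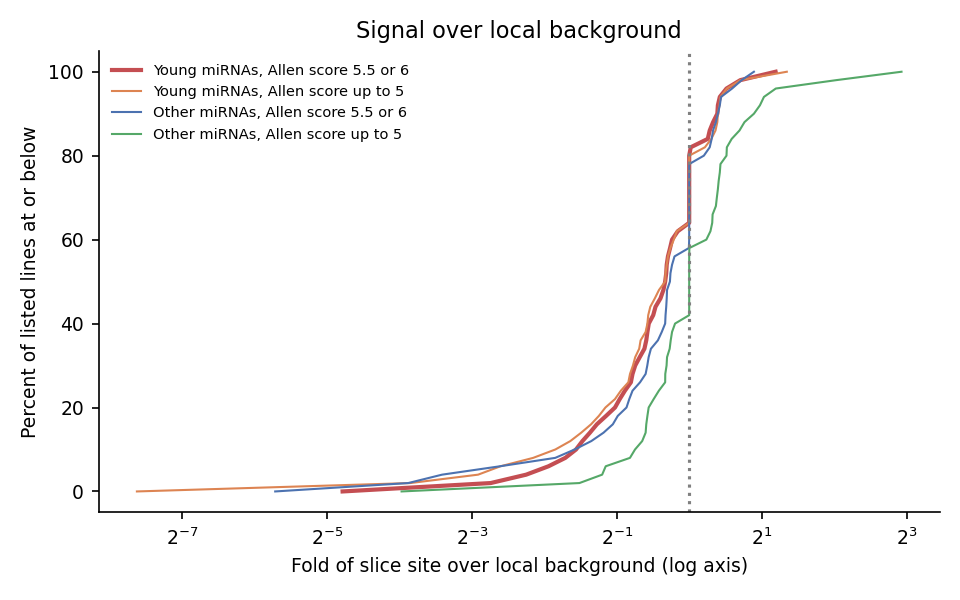
Percent of listed lines (y axis) at or below each fold of slice site over local background (x axis, log scale) for 4 classes of sites. The curves of young miRNAs with weak and with good pairing lie together, with medians of 0.795 and 0.794, and the curve of the well-paired sites of the other miRNAs, median 1.00, lies to the right.

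The 1 line under 0.05 was in AT4G26670, a Tim17-type mitochondrial import subunit, paired with miR5659 at a score of 5.5. It was listed at 1.25 RPM in HS replicate 2, where the local background was 0.251 RPM and the fold 1.80. It was listed at 1.24 RPM in Recovery replicate 2, with a fold of 1.16 and an authors' adjusted p of 0.795, and in none of the other 7 libraries.

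Summed over all 575 sites, Control libraries held 77.8, 73.2 and 71.0 RPM, HS libraries 63.8, 42.2 and 85.6 RPM, and Recovery libraries 33.5, 46.5 and 44.9 RPM. Every Recovery library lay below every Control library, while the HS libraries spanned both, HS replicate 2 being below Recovery replicates 2 and 3. The mean of Control was 74.0 ± 3.51 RPM, that of HS 63.9 ± 21.7 RPM and that of Recovery 41.6 ± 7.06 RPM (SD, n = 3 each). The order turned over when libraries were rescaled to the same summed RPM of all listed sites, with 58.8 ± 5.97, 58.5 ± 5.83 and 65.4 ± 1.28 RPM. The sites' share of a library's summed RPM ran from 20.7% to 26.7%. The total over all listed sites of the series was 316 ± 17.1 RPM in Control and 159 ± 29.7 in Recovery, and the implied reads were 2331769 to 3167323 in Control and 3236099 to 4609739 in Recovery. The part of either in this result was not tested. The number of listed sites was 97, 127 and 132 in Control, 100, 97 and 140 in HS, and 80, 97 and 117 in Recovery, so that the groups overlapped.

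**Figure D3:**
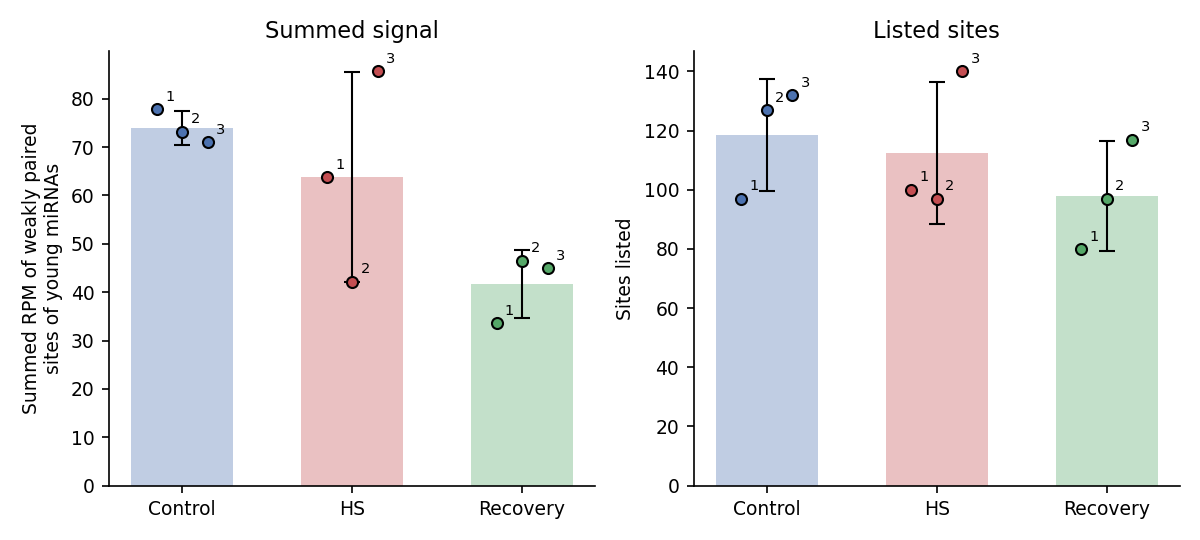
Summed RPM of the 575 sites (left) and number of sites listed (right) in each library, numbered by replicate. Bars are means and error bars SD of 3 libraries. Summed signal was 33.5 to 46.5 RPM in Recovery and 71.0 to 77.8 RPM in Control, and HS ran from 42.2 to 85.6 RPM.

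As 366 sites were in a single library, most were listed in 1 group. Of the 575 sites 146 were listed in Control alone, 139 in HS alone and 130 in Recovery alone, and 38 in all 3 groups. For all sites of the series this split was counted only under the stricter rule that follows. When a site had to be in at least 2 of the 3 libraries of a group, 27 were found in Control alone, 33 in HS alone, 29 in Recovery alone and 7 in all groups, and 449 met this in no group. These were 4.70%, 5.74%, 5.04% and 1.22% of the sites and 78.1% in no group, beside 7.16%, 3.73%, 5.42% and 2.29% of all sites of the series and 75.9% in no group. With a median of 1 read at a listed site, absence from a library is not absence of the end. Of the 94 sites that could be tested, listed in at least 3 of 9 libraries, 6 were in all libraries of 1 group and in none of the others. The same count was not made over all tested sites of the series, so the 6 are not read as a trait of this set. The 6 sites were AT4G09830 in Control, HSP70T-2, CRL1 and VMA10 in HS, and AT5G05750 and CYP71B5 in Recovery.

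In HS against Control, signal was higher at 2 transcripts, AT4G14270 and HSP70T-2. Both were called by limma on log2(RPM + 1) with Benjamini-Hochberg adjustment over the 322 tested sites of the series, 94 of them of this set. Of all 322 sites 3.42% were called higher and 1.55% lower, against 2 of 94 and 0 of 94 here, and 12 of the 94 had an unadjusted p under 0.05. After rescaling the split over all sites moved from 11 higher and 5 lower to 8 and 1. AT4G14270, which RefSeq names a polyadenylate-binding protein interacting protein, paired with miR831-3p at a score of 6. It held 2.38, 1.25 and 3.91 RPM in HS, 0.316 RPM in Control replicate 3 alone, and was not listed in Control replicates 1 and 2 or in Recovery. All HS libraries were above all others. The difference in log2(RPM + 1) was 1.61 ± 0.355 (SE, adjusted p = 0.00793). HSP70T-2, a chaperone of the Hsp70 family, paired with miR5628 at a score of 6. It held 1.02, 0.502 and 3.59 RPM in HS and was unlisted in the other 6 libraries. Its difference was 1.27 ± 0.366 (SE, adjusted p = 0.0467), a value that rests on the pseudocount because Control was at 0.

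Neither call marks a peak of ends. The local background of HSP70T-2 in HS was 10.6, 19.1 and 24.4 RPM, with folds of 0.175, 0.0748 and 0.180. That of AT4G14270 in HS was 7.49, 5.52 and 14.3 RPM, with folds of 0.399, 0.346 and 0.320. The local background thus exceeded the signal of the site itself in each HS library. It is known only for libraries that list the site. How much of the signal came from a change in the amount of transcript was not tested. The calls also rested on single libraries. Without HS replicate 3, or without Control replicate 2, both calls were lost, with adjusted p of 0.0604 and 0.0540 for AT4G14270. Of the 9 libraries, leaving out any but HS replicate 2 lost the call of HSP70T-2, which rescaling lost too (adjusted p = 0.0594). Without Control replicate 1, AT4G09830 was called lower, as it was without the trend in eBayes (adjusted p = 0.0463 and 0.0406). CRL1 was called higher without HS replicate 2 (0.0140) and VMA10 without HS replicate 1 (0.0457). The call of HSP70T-2 held in 6 of 17 alternatives (adjusted p from 0.0162 to 0.148), and that of AT4G14270 in 15 of 17 (0.00411 to 0.0604).

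In Recovery against HS, AT4G14270 was the single site called, and it fell by 1.74 ± 0.355 on the log2(RPM + 1) scale (SE, adjusted p = 0.00757). This call was lost without HS replicate 3 (adjusted p = 0.0524) and without Recovery replicate 3 (0.0614). Of all tested sites 0.932% were called lower and 0% higher, and 12 of the 94 had an unadjusted p under 0.05. The comparison shares its HS libraries with that of HS and Control. HSP70T-2 differed by -1.27 ± 0.366 (adjusted p = 0.0948). Without HS replicate 2 the number of sites called lower rose to 5, with CA1, CRL1, AT4G01150 and HSP70T-2 joining AT4G14270, while calls over all 322 sites rose from 3 to 16. Without Recovery replicate 1, CYP71B5 and AT5G05750 were called higher beside it.

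In Recovery against Control 0 of 94 sites were called by limma, and 15 had an unadjusted p under 0.05. Of all 322 sites 0.621% were called higher and 2.17% lower, that is 2 and 7 sites, which became 3 and 2 after rescaling. The smallest adjusted p was 0.0769, at CA1 and CYP71B5. Leaving out Recovery replicate 1 or 3 gave 2 calls each, CYP71B5 and AT5G05750, both higher, and leaving out HS replicate 2 gave 1, CA1, lower.

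Groups that did not overlap can be read without a model, but not without regard to library size. A single read was worth 0.316 to 0.429 RPM in Control, 0.251 to 0.340 RPM in HS and 0.217 to 0.309 RPM in Recovery. A site with 1 read in every library would thus count as lying wholly lower in Recovery than in Control. How many of the sites counted here rest on this was not tested. In HS against Control 4 sites lay wholly above and 6 wholly below, beside 6.21% and 10.2% of all tested sites. In Recovery against Control 5 lay above and 14 below, beside 7.14% and 15.8%. In Recovery against HS 4 lay above and 8 below, beside 5.59% and 7.45%. As shares of the 94 sites these were 4.26% and 6.38%, 5.32% and 14.9%, and 4.26% and 8.51%, near those of all sites. The median difference in log2(RPM + 1) was -0.10 for HS and -0.16 for Recovery against Control, and -0.13 and -0.15 over all 322 sites. Rescaling moved the last value to -0.02, and the median of the 94 sites for Recovery to -0.08.

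The heat shock and chaperone group had its highest signal in HS. Its 19 sites in 17 loci (3.30% of the sites, as against 3.43% of all sites in the series) summed to 2.57, 1.05 and 0.947 RPM in Control, 4.76, 3.01 and 13 RPM in HS, and 1.75, 1.55 and 0.651 in Recovery. All HS libraries were above all others, also after rescaling, where HS held 3.87, 4.42 and 9.44 RPM and the others 0.711 to 3.48. This separation hung on HSP70T-2, which is part of these sums. Without that site HS replicate 2 would lie below Control replicate 1, and after rescaling HS replicate 1 would lie below Recovery replicate 1. Of its 5 tested sites 1, HSP70T-2, was called higher and 0 lower in HS against Control. Hsp70b, a heat-induced cytosolic Hsp70 whose site is shown above, held 2.38 and 3.91 RPM in HS replicates 1 and 3 and was not listed in the other 7 libraries. Its local background there was 5.45 and 12.1 RPM. In too few libraries for the test, it was called in HS against Control only when no filter was set (adjusted p = 0.0114). Together HSP70T-2, Hsp70b and Cpn60beta2, a chloroplast chaperonin subunit at 2.93 RPM, made up most of the signal of this gene group in HS replicate 3.

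Most other sites of the group were at 1 to 3 reads. HSFA7A, a heat-induced heat shock factor, held 0.340 and 0.251 RPM in HS replicates 1 and 2. HSF4, a class B heat shock factor, held 0.502 RPM in HS replicate 2. Hsp81.4, a cytosolic Hsp90, held 0.326 RPM in HS replicate 3. HSP18.2, a small heat shock protein, held 0.340 and 0.251 RPM in HS replicates 1 and 2 and 0.582 RPM in Recovery replicate 1. Of the 19 sites 8 were listed in HS alone, 4 in Control alone and 2 in Recovery alone. Over all 575 sites the shares were 24.2% in HS alone, 25.4% in Control alone and 22.6% in Recovery alone. This split was not counted over all sites of the series, and with so few reads it is not read as a trait of the group. AT5G05750, a DnaJ-domain protein paired with miR870-3p, was the only tested site of the group confined to Recovery, with 0.582, 0.309 and 0.217 RPM (adjusted p = 0.0835 by limma against Control). AT1G56300, another DnaJ-domain protein, was listed in 7 libraries of all groups, at 0.217 to 0.927 RPM. CR88, a chloroplast Hsp90, held 0.429 RPM in Control replicate 1 and 0.340 and 0.978 RPM in HS replicates 1 and 3. CLPC1, an Hsp100 of the chloroplast import and protease machinery, had 3 sites for 3 guides, the most of any locus, none above 0.858 RPM.

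**Figure D4:**
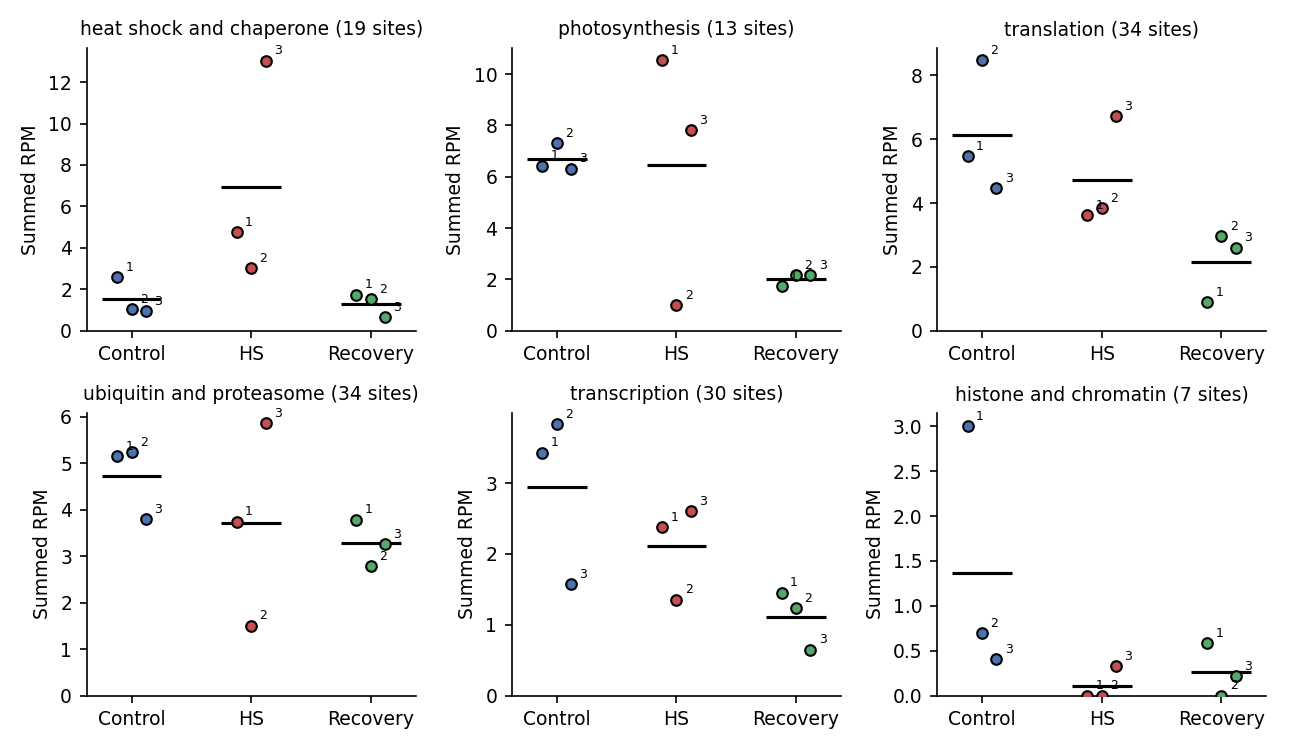
Summed RPM (y axis) of the sites of 6 gene groups in each library, numbered by replicate, with lines at group means (n = 3). Heat shock and chaperone sites, HSP70T-2 among them, sum to 3.01 to 13 RPM in HS and at most 2.57 RPM in the other libraries, and photosynthesis sites to 1.75 to 2.17 RPM in Recovery.

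Photosynthesis sites had their lowest sums in HS replicate 2 and in Recovery, and CA1 held much of the difference. The 13 sites summed to 6.43, 7.32 and 6.31 RPM in Control, 10.6, 1.00 and 7.82 RPM in HS, and 1.75, 2.16 and 2.17 RPM in Recovery. After rescaling Control was at 4.74 to 5.80 RPM and Recovery at 2.99 to 3.48 RPM. Without CA1, an alternative added after the values were seen, the other 12 sites summed to 3.86, 2.09 and 1.89 RPM in Control and 1.75, 1.85 and 1.3 RPM in Recovery, and after rescaling these groups overlapped. Of the 7 tested sites 0 were called in any comparison. CA1, a chloroplast carbonic anhydrase paired with miR5024-3p, had the largest summed signal of the 575 sites. It held 2.57, 5.23 and 4.42 RPM in Control, 5.45 and 3.91 RPM in HS replicates 1 and 3, and 0.309 and 0.868 RPM in Recovery replicates 2 and 3, and it was unlisted in HS replicate 2 and Recovery replicate 1. All Recovery libraries were below all Control libraries, and the difference was -1.88 ± 0.570 (SE, adjusted p = 0.0769). It was called without HS replicate 2 and with the replicate block (adjusted p = 0.0163 and 0.0449, up to 0.271 over the alternatives). Its folds were 0.342 to 0.781, so this site too lay among stronger neighbouring ends.

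The other photosynthesis transcripts varied one by one. PSB29, needed for photosystem II assembly and paired with miR838, held 3.0 and 0.698 RPM in Control replicates 1 and 2, 1.70, 0.502 and 0.978 RPM in HS, and 0.618 RPM in Recovery replicate 2. FED A, the main leaf ferredoxin, was unlisted in Control and held 1.36 and 0.652 RPM in HS replicates 1 and 3 and 0.291, 0.618 and 0.868 RPM in Recovery. RCA, the activase of rubisco, held 0.217 to 0.681 RPM in 5 libraries. PSAE-2, a photosystem I subunit, held 0.947 RPM in Control replicate 3 and 0.681 and 1.63 RPM in HS replicates 1 and 3. AT4G01150, a CURVATURE THYLAKOID 1A-like protein outside the list, held 1.29, 0.698 and 0.316 RPM in Control, 3.06, 0.251 and 1.96 RPM in HS, and 0.291 RPM in Recovery replicate 1.

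Translation and ubiquitin were the groups with the most sites, 34 each. Translation sites summed to 5.48, 8.49 and 4.48 RPM in Control, 3.62, 3.84 and 6.73 RPM in HS, and 0.888, 2.96 and 2.60 RPM in Recovery, but after rescaling Recovery and Control overlapped. None of the 11 tested sites was called in any comparison. AT1G52300, a zinc-binding ribosomal protein paired with miR778, held 1.29, 1.05 and 0.947 RPM in Control, 0.681 and 1.3 RPM in HS replicates 1 and 3, and 0.217 RPM in Recovery replicate 3. AT3G08520 (ribosomal protein L41, paired with miR831-3p) and the elongation factor 1-alpha genes AT1G07920, AT1G07930 and AT1G07940 (paired with miR861-5p) had values that were not whole reads. Near-identical gene copies can share reads, so their split is uncertain.

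miR838 was paired with UBQ5, UBQ6 and AT1G23410, which encode ubiquitin fused to ribosomal protein S27a, the first pair in the ubiquitin list and AT1G23410 in the translation list. UBQ5 held 0.429, 1.74 and 0.631 RPM in Control, 1.36 and 2.28 RPM in HS replicates 1 and 3, and 0.873 RPM in Recovery replicate 1. The miR838 site of UBQ6 held 1.72, 0.349 and 0.316 RPM in Control, 0.326 RPM in HS replicate 3 and 0.217 RPM in Recovery replicate 3. The UBQ6 site shown above is an A- and G-rich stretch that faces the pyrimidine-rich guide. None of the 6 tested ubiquitin sites was called, and the 34 summed to 3.79 to 5.23 RPM in Control, 1.51 to 5.87 in HS and 2.78 to 3.78 in Recovery, while after rescaling Recovery, at 3.84 to 7.53 RPM, overlapped Control, at 2.84 to 4.30 RPM. PBC2, a 20S proteasome subunit, and NBR1, a selective autophagy receptor, reached 1.29 and 1.46 RPM, in Control replicate 1 and Recovery replicate 1.

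The 30 transcription sites were nearly all at 1 or 2 reads, and 3 were tested with 0 calls. All 5 sites in genes named as MYB domain proteins were paired with miR858a or miR858b, miRNAs known for MYB mRNA targets, which had 19 sites in all. MYBR1 held 0.349 RPM in Control replicate 2 and 1.02, 0.251 and 0.326 RPM in HS. MYB34, a regulator of indole glucosinolate synthesis, held 0.858 RPM in Control replicate 1 and 0.434 RPM in Recovery replicate 3. MYB45, MYB58 and MYB101 were listed in 1 library each. MYB58 and MYB101 held 0.0502 RPM each, a fraction of 1 read, so they are not counted as sites with a read of their own. These MYB sites were picked out after their values were seen. miR858a and miR858b differ by a shift of 1 base, and in SNRK2.10, a stress-activated kinase, they marked neighbouring positions 1020 and 1019.

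The 7 histone and chromatin sites summed to 3.0, 0.698 and 0.404 RPM in Control, 0, 0 and 0.326 RPM in HS, and 0.582, 0 and 0.217 RPM in Recovery. HTA6, a histone H2A, held 1.72, 0.349 and 0.316 RPM in Control, was unlisted in HS and held 0.291 RPM in Recovery replicate 1 (adjusted p = 0.236 in HS against Control). RNA metabolism (13 sites), defence and redox (9) and cell wall and membrane (8) had no tested site, and cytoskeleton (3) had 1, TUB6, which was not called. The remaining 405 sites were in none of the lists.

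Few sites were listed steadily across the groups. AT1G72020, which RefSeq names a TonB-dependent heme receptor A, was listed in all 9 libraries, at 5.58, 1.05 and 2.53 RPM in Control, 0.681, 0.753 and 1.3 RPM in HS, and 0.582, 1.85 and 1.08 RPM in Recovery, and the groups overlapped. AT5G03545, a phosphate starvation response gene, was also in all 9, at 0.0247 to 0.352 RPM, which were not whole reads. AT3G01130, an ATP synthase E chain paired with miR829-5p, held 2.57, 0.698 and 1.26 RPM in Control, 2.26 and 0.978 RPM in HS replicates 2 and 3, and 1.55 and 1.3 RPM in Recovery replicates 2 and 3. AT2G07698, an F1 ATPase alpha subunit paired with miR867, held 0.947 RPM in Control replicate 3, 1.51 and 0.326 RPM in HS replicates 2 and 3, and 2.91, 2.16 and 1.3 RPM in Recovery. Recovery lay above Control with no overlap (difference 1.29 ± 0.418 SE, adjusted p = 0.0835 by limma). The folds of the AT2G07698 site were 0.0677 to 0.931, so the local background exceeded the site in each library that listed it. That background was 1.58 RPM in Control replicate 3 and 3.20, 8.34 and 4.99 RPM in Recovery. AGT, the photorespiratory alanine:glyoxylate aminotransferase of peroxisomes, paired with miR5021 and held 0.429 and 0.349 RPM in Control replicates 1 and 2, 0.753 and 0.978 RPM in HS replicates 2 and 3, and 0.873, 2.47 and 0.651 RPM in Recovery.

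Sites of single groups were also found among less abundant ends. CRL1 and VMA10, a vacuolar ATPase subunit, were listed in HS alone, at 0.340, 0.753 and 0.326 RPM and at 1.02, 0.502 and 0.326 RPM (adjusted p = 0.113 and 0.135 in HS against Control). AT4G09830 was in Control alone, at 0.429, 0.698 and 1.26 RPM (adjusted p = 0.113 for HS and 0.0909 for Recovery). CYP71B5, a cytochrome P450, was in Recovery alone, at 0.291, 0.309 and 0.434 RPM, 1 or 2 reads per library. AT5G52840, a subunit of NADH-ubiquinone oxidoreductase paired with miR838, held 0.858, 1.05 and 0.947 RPM in Control, 0.340, 0.251 and 0.978 RPM in HS, and was unlisted in Recovery (adjusted p = 0.0859 against Control). AT1G62480, a vacuolar calcium-binding protein-like gene and also a miR838 site, held 0.858, 1.74 and 1.89 RPM in Control, above the 0.652, 0.291 and 0.618 RPM found in HS replicate 3 and Recovery replicates 1 and 2 and the other 3 libraries without it (adjusted p = 0.112 for HS). Its values in Control replicate 1, HS replicate 3 and Recovery replicate 2 were the same number of reads.

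Further sites named for their signal or for the number of libraries had overlapping groups or were not called. AT2G10940, of the lipid-transfer protein superfamily, held 1.29, 0.349 and 1.58 RPM in Control, 2.04, 0.251 and 0.978 RPM in HS, and 0.309 RPM in Recovery replicate 2, below all Control libraries (adjusted p = 0.226). MTO1, the cystathionine gamma-synthase of methionine synthesis, held 1.29, 0.349 and 0.947 RPM in Control, 0.681 and 0.326 RPM in HS replicates 1 and 3, and 0.217 RPM in Recovery replicate 3 (adjusted p = 0.210 for Recovery). At both sites every Recovery library lay below every Control library in RPM, without a call. In reads the groups touched, as Control replicate 2 and the highest Recovery library held 1 read each. PBP1, the PYK10-binding protein and a jacalin-type lectin, was paired with miR842, a miRNA known for lectin targets. It held 1.05 and 1.26 RPM in Control replicates 2 and 3 and 0.340 and 1.3 RPM in HS replicates 1 and 3, and was unlisted in Recovery. PIP2A, a plasma membrane aquaporin, held 0.429, 1.05 and 0.631 RPM in Control, was unlisted in HS, and held 0.309 and 0.434 RPM in Recovery replicates 2 and 3 (adjusted p = 0.218 in HS against Control). GLT1, the NADH-dependent glutamate synthase, and ROC1, a cyclophilin, were each listed in 6 libraries of all groups, at most at 1.72 and 0.858 RPM. AT1G63830, of the PLAC8 family, held 0.429, 0.349 and 0.631 RPM in Control, 0.251 RPM in HS replicate 2, and 0.582 and 1.95 RPM in Recovery replicates 1 and 3. In RPM HS lay below Control and Recovery spanned it. The values in HS replicate 2 and in Control replicates 1 and 2 were 1 read each.

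**Figure D5:**
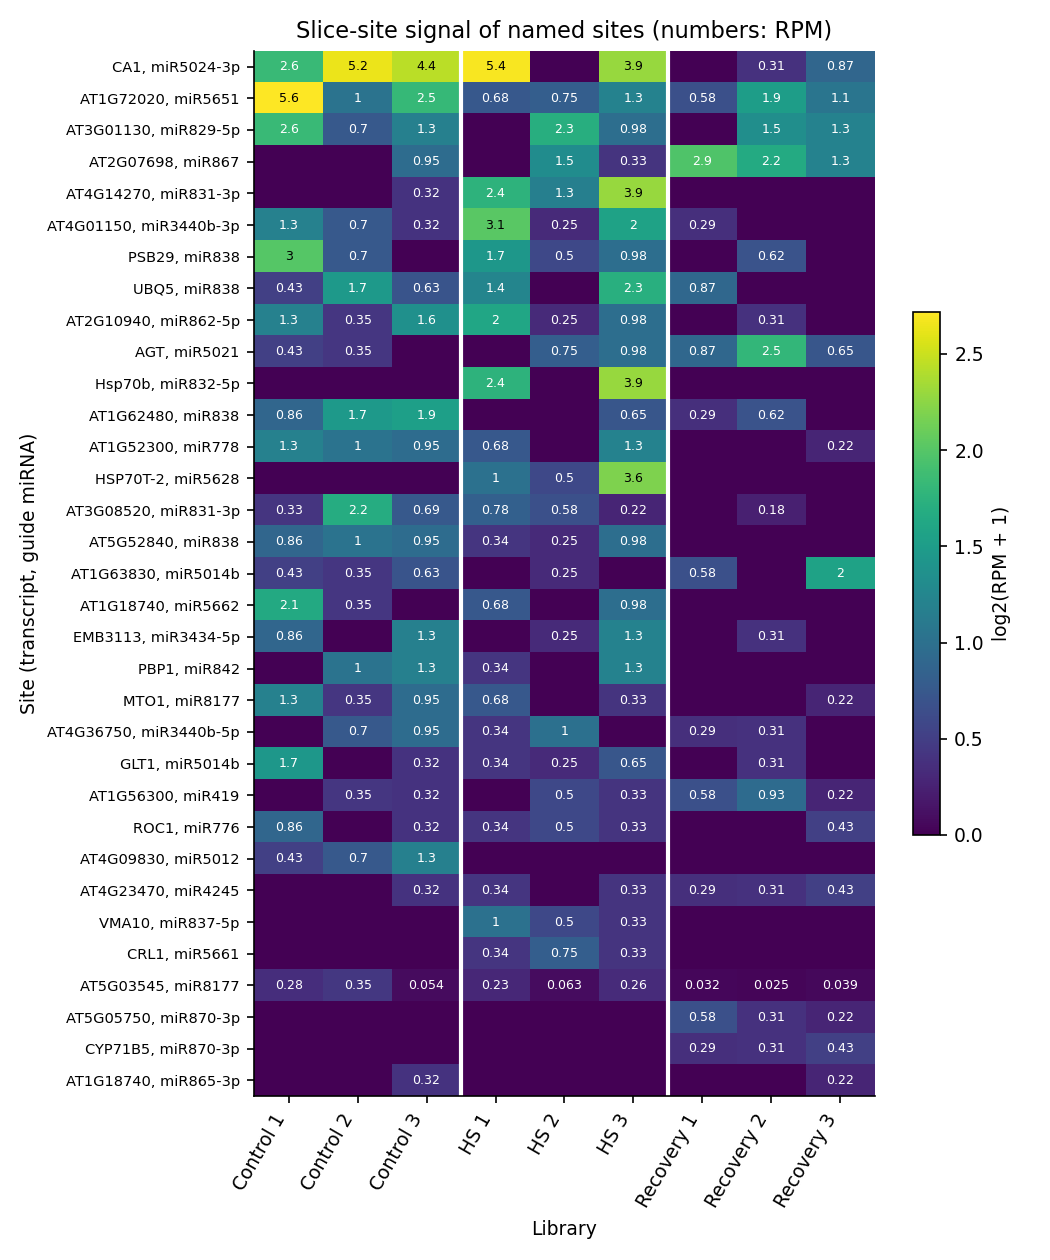
Slice-site signal of 33 named sites (rows, transcript and guide) in the 9 libraries (columns), coloured by log2(RPM + 1), with RPM written in each listed cell. AT4G14270 and HSP70T-2 stand out in the HS columns, CA1 in Control and HS replicates 1 and 3, and AT1G72020 is filled in every column.

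The number of listed sites is given by library for miR5021, miR847 and miR838, the guides with the most sites. miR5021 had 7, 3 and 1 sites in Control, 4, 8 and 5 in HS, and 6, 10 and 13 in Recovery. miR847 had 4, 2 and 9 sites in Control, 5, 1 and 7 in HS, and 1, 0 and 0 in Recovery. miR838 had 7, 10 and 6 sites in Control, 5, 3 and 10 in HS, and 5, 4 and 5 in Recovery. For miR847 all Recovery libraries were at or below the lowest of the other groups, and for miR5021 the groups overlapped. For miR838 Recovery lay below Control and HS overlapped both. The lines listed over the whole series ran from 319 to 412 in Control and from 251 to 357 in Recovery. Whether guides differ was not tested. Within 1 locus, 16 loci held 2 or 3 sites, and 69 loci also held sites outside the rule, 79 in all.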

How the data were processed

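5′ ends of RNA were sequenced by nanoPARE from 9 libraries of Col-0 seedlings (Control, HS and Recovery, 3 each). Groups and replicate numbers came from the sample titles. The authors processed reads with the nanoPARE pipeline, and per the labels the build was TAIR10. For the aligner no version is given in the sources used here. Each library's list holds 1 line per miRNA, transcript and slice site. The slice-site RPM, scaled to library size, was deposited by the authors. The deposited fold is a ratio of slice-site to local background RPM, each plus 1. The p-value in the deposited lists was adjusted by the authors' pipeline, and the deposited Allen score is the pairing penalty.

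The rule gave 575 sites, and sites missing from a library's list were set to 0 RPM. The members and gene lists were chosen with earlier results of these data known. The lists were made from words in RefSeq product names and synonyms, so single entries can be misplaced, such as the endosomal sorting gene VPS46.1 in the histone list. Between 89.2% and 94.1% of a library's values were whole multiples of 1 read within 0.01 of a read, and as the rest were fractions no count model was fitted. Differences were tested with limma version 3.58.1 in R 4.3.3 (eBayes with an intensity trend after lmFit) on log2(RPM + 1) of the 322 sites of the series in at least 3 of 9 libraries, all libraries in 1 fit, with Benjamini-Hochberg adjustment over the 322 and a threshold of 0.05. This scale understates changes of low sites. Of the members 94 were tested, holding 51.5% of their RPM, and 481 were not. The fit was also run on simulated data in which most tested sites rose in HS and none fell. As the real data differ from that setting, the run gives no error rate for the calls reported here. Standard errors and p-values measure the spread between libraries, and PCR copies could not be told from separate molecules.

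Named sites were those called in a comparison, listed in at least 6 libraries, in the 20 loci with the largest summed RPM, with an authors' adjusted p under 0.05, listed in all libraries of 1 group only, or in a gene list and at least 3 libraries, 59 sites in all. For guides, the 6 with the most sites and the 6 with the largest signal were named. Other sites of the gene lists and the MYB, SNRK2.10 and CLPC1 sites were chosen after their values were seen. Guides and transcripts were read from the RefSeq TAIR10.1 genome and annotation, and a site was placed where the guide, with a bulge of up to 2 bases allowed, gave the deposited Allen score with base 10 on the base after the deposited position. Coordinates are 1-based in TAIR10.1. Alternatives were other pseudocounts, filters, a rescaling of libraries, merged isoforms, no trend, a replicate block and leaving out each library. Python 3.11.15, NumPy 2.4.6, pandas 2.3.3 and matplotlib 3.10.9 were used.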

Additional observations from a re-analysis of the deposited data

How the results depend on the processing

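Calls at these sites rest on few reads and 3 libraries per group, and a site with 1 read in a library cannot be told from a site that went unlisted. The number of sites called in HS against Control, 2, was 1 with a pseudocount of 4 RPM and 1 after rescaling libraries to the same summed RPM, and 0 to 3 when each library was left out. In Recovery against Control, 0 sites became 1 with a pseudocount of 0.25 RPM, 2 without the trend in eBayes and 1, CA1, with the replicate block, and 0 to 2 when each library was left out. In Recovery against HS, 1 site became 3 with no filter on low values, and 0 to 5 when each library was left out. Over all tested sites, 16 calls in HS against Control became 10 with a pseudocount of 4 RPM, 9 after rescaling and 5 to 16 when each library was left out. The 9 in Recovery against Control became 14 and 1 with pseudocounts of 0.25 and 4 RPM, 4 with no filter, 5 after rescaling, 16 without the trend and 1 to 10 when each library was left out. The 3 in Recovery against HS became 5 with no filter and 0 to 16 when each library was left out. The replicate block gave 2, 1 and 1 calls at the weakly paired sites in the 3 comparisons. The causes were not tested. Deviations from the group means correlated at -0.0978 to 0.0991 between same-numbered libraries and at -0.0955 to 0.128 between other pairs. With so few reads per site, these correlations cannot show whether replicate numbers pair the libraries.

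The summed RPM of the sites in Control, HS and Recovery (74.0, 63.9 and 41.6) was 58.8, 58.5 and 65.4 after rescaling, 69.9, 60.7 and 41.2 without CA1, and 45.6, 40.6 and 23.3 with a score of 6 alone. Leaving out each library gave 72.1 to 75.5 RPM in Control, 53.0 to 74.7 in HS and 39.2 to 45.7 in Recovery.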
